A study of Mus musculus with 6 samples.

Results

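AI506816, Wdfy1, Myo7a and Gpr137b-ps are 4 of the 19938 genes measured in the lumbar spinal cord of mouse embryos. Each of them lay on separate high and low levels from array to array, and the largest step of none of them followed the genotype at Tnc. They were taken by symbol, as the table row that the platform annotation pairs with that symbol alone. Each had 1 such row, and 0 rows named it together with another gene. The genes were chosen by their log2 levels on these same 6 arrays, for a wide spread within the genotypes, so the levels, steps and group differences of the 4 genes are a description and carry no test.

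The study set 3 wild-type samples against 3 samples of genotype TNC -/-, labelled as null for tenascin-C, a large matrix glycoprotein of the embryonic cord. All 6 were lumbar cord of embryos at E15.5, of strain SV129, with no treatment. Total RNA of each was hybridised to 1 whole-transcript array, and the values are log2 signals. Litters, breeding and the removed part of Tnc are not stated in the labels, which name each sample a biological replicate, so spreads and intervals cover these samples alone. The samples are called WT 1 to WT 3 and KO 1 to KO 3 below, by the replicate number in the labels.

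AI506816 is annotated as a long noncoding RNA, and no role is given to it here. Wdfy1 encodes a protein with WD repeats and a FYVE domain, which binds a phosphoinositide of early endosomes, and it has been described as an adaptor in signalling from the Toll-like receptors Tlr3 and Tlr4. Myo7a encodes myosin VIIa, an actin motor of the stereocilia of inner-ear hair cells and of the retinal pigment epithelium, whose loss causes deafness in shaker mice and Usher syndrome in people. Gpr137b-ps is annotated as a transcribed pseudogene. Its relative Gpr137b encodes a membrane protein of lysosomes that acts on Rag GTPases, the switches that bring the growth kinase mTORC1 to the lysosome. As background, a sequence variant close to a gene can set its transcript level, and animals of a line that still carries both alleles then fall on separate levels according to the alleles they hold. Alleles were not measured here.

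Tnc, the targeted gene, read 10.72, 10.22 and 10.02 in WT 1 to WT 3 and 9.64, 9.76 and 9.47 in KO 1 to KO 3. Every knockout array lay below every wild-type array, and the log2 difference was -0.69 with a 95% interval from -1.09 to -0.30, which did not pass the limma threshold of 0.05 after adjustment over all genes. The knockout signal stayed far above background, and where the row lies relative to the removed part of Tnc is not known here, so the level checks the labels only in part. Markers of the cord were present, with all 8 listed genes (Hoxc10, Hoxa10, Olig2, Pax6, Sox2, Elavl3, Isl1, Mnx1) at mean levels from 6.79 to 12.69. A guide to background is 6.14, the 95th percentile of the mean levels of 1190 olfactory and vomeronasal receptor genes. WT 3 and WT 1 stood apart from the other arrays. On the first component, which held 49.0% of the variance over genes, WT 3 lay at 0.705 and WT 1 at -0.570, and the others between -0.257 and 0.293. The array number limits the precision of every value.

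AI506816 read 5.59 in WT 1, 7.73 in WT 2, 3.53 in WT 3, 7.87 in KO 1, 7.996 in KO 2 and 4.22 in KO 3. WT 2, KO 1 and KO 2 were high and lay within 0.26 log2 units of one another, while WT 3 and KO 3 were low and WT 1 lay between. WT 1, WT 3 and KO 3 were under the background guide of 6.14, so the size of the step below the high arrays is not well measured, and no fold is given. The 3 high arrays stood 1.60 to 1.86 log2 units above the guide. As deposited, the range was 4.47 log2 units. The largest difference between 2 neighbouring arrays in order of level, called the largest gap below, was 2.14 log2 units as deposited and lay between WT 1 and WT 2. A second gap of 1.37, between KO 3 and WT 1, lay wholly under the guide.

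Wdfy1 read 9.60 in WT 1, 9.77 in WT 2, 7.71 in WT 3, 9.12 in KO 1, 9.06 in KO 2 and 7.83 in KO 3. WT 3 and KO 3 were low, KO 1 and KO 2 were intermediate, and WT 1 and WT 2 were high, so that the arrays lay in 3 pairs. The pairs were 0.12, 0.07 and 0.16 log2 units wide, and the gaps between them were 1.22 and 0.48. The larger gap left arrays of both genotypes on each side. The smaller one parted KO 1 and KO 2 from WT 1 and WT 2, so this upper step coincided with genotype among those arrays. On the linear scale (2 to the power of the deposited value) the same gaps were 304.3 and 220.2 units, above a low pair at 208.9 and 227.7. Both low values stayed well above the background guide.

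Myo7a read 8.53 in WT 1, 8.38 in WT 2, 7.02 in WT 3, 6.70 in KO 1, 8.43 in KO 2 and 6.98 in KO 3. Its 6 arrays formed 2 sets with nothing between them. WT 1, WT 2 and KO 2 lay within 0.15 log2 units of one another, and WT 3, KO 1 and KO 3 within 0.31. The gap of 1.36, or 2.57-fold, took up 74.6% of the range, the largest share among the 4 genes.

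Gpr137b-ps read 9.22 in WT 1, 7.73 in WT 2, 8.95 in WT 3, 9.24 in KO 1, 9.12 in KO 2 and 8.03 in KO 3. Only WT 2 and KO 3 were low, and the 4 higher arrays lay within 0.29 log2 units of one another. The gap was 0.93, or 1.90-fold. On the linear scale the low arrays read 211.9 and 260.8, and the higher ones between 495.6 and 603.9.

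**Figure D1:**
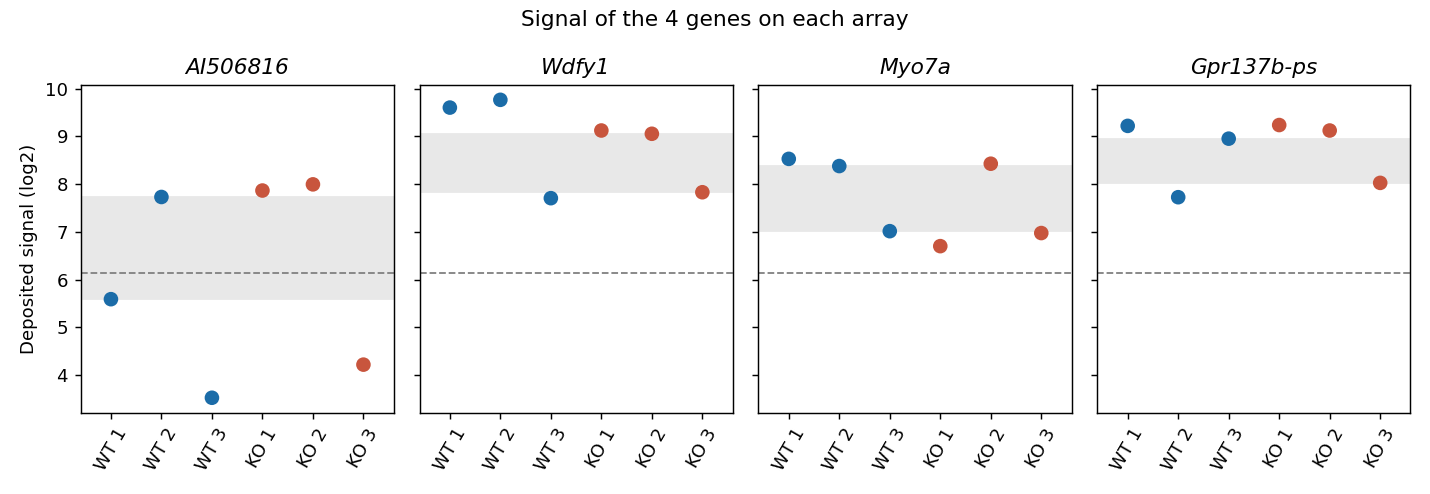
Deposited log2 signal (vertical axis) of AI506816, Wdfy1, Myo7a and Gpr137b-ps on each array, with wild-type arrays in blue and knockout arrays in red. Each point is 1 array, the grey band is the largest gap of the gene (2.14, 1.22, 1.36 and 0.93 log2 units), and the dashed line is the background guide of 6.14, under which the lower side of the AI506816 gap lies. Arrays of both genotypes lie above and below each band.

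**Figure D2:**
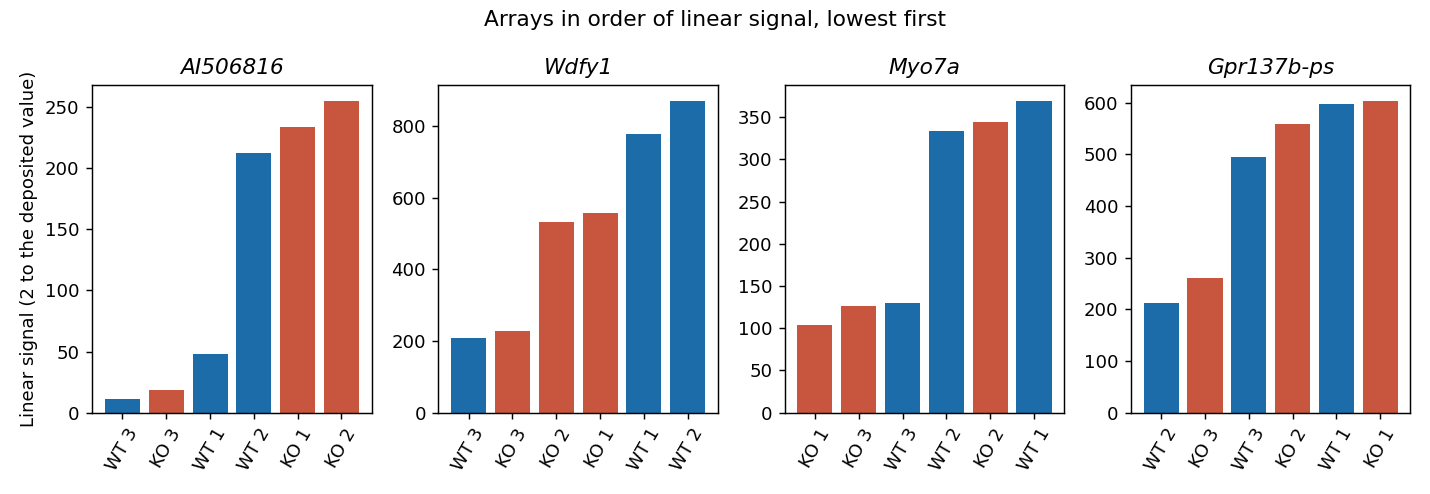
Linear signal (2 to the power of the deposited value, vertical axis from 0) of the same 4 genes, with the arrays of each gene placed from lowest to highest and coloured blue for wild type and red for knockout. Wdfy1 rises in 3 pairs from 208.9 to 870.7, and Myo7a falls into 3 arrays from 104.1 to 129.4 and 3 from 333.0 to 369.6.

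The 4 genes parted the arrays in 4 different ways. KO 2 was on the high side for all 4 genes and KO 3 for 0 of them. WT 1 was high for Wdfy1, Myo7a and Gpr137b-ps, WT 2 for AI506816, Wdfy1 and Myo7a, and KO 1 for AI506816, Wdfy1 and Gpr137b-ps. WT 3 was high for Gpr137b-ps alone. A pair of arrays that was alike for one gene could differ for the next, as WT 1 and WT 2 did, which were both high for Myo7a and stood on opposite sides for AI506816 and Gpr137b-ps. None of the 4 followed the sex of the embryos either. The Y-linked genes Eif2s3y, Uty and Kdm5d were high in KO 1 and KO 3 alone, and Xist, the X-inactivation transcript, was low in those same arrays. No wild-type array had this pattern, so differences between the genotypes cannot be fully told apart from sex.

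The genotype groups overlapped for each of the 4 genes. Groups that did not overlap were found for 5.82% of all genes. Knockout minus wild type was 1.08 log2 units for AI506816, from 5.62 ± 2.10 to 6.69 ± 2.14 (SD, n = 3 each), with a 95% interval from -1.76 to 3.91, and it turned to -0.25 with array weights. For Wdfy1 it was -0.36, from 9.03 ± 1.15 to 8.67 ± 0.73 (SD, n = 3 each), with an interval from -1.64 to 0.93, and -0.86 with array weights. For Myo7a it was -0.61, from 7.97 ± 0.83 to 7.37 ± 0.93 (SD, n = 3 each), with an interval from -1.79 to 0.58. For Gpr137b-ps it was 0.16, from 8.63 ± 0.80 to 8.80 ± 0.67 (SD, n = 3 each), with an interval from -0.83 to 1.16, and 1.06 with array weights. The spread within a genotype was thus large for these genes, at pooled standard deviations of 2.12, 0.96, 0.88 and 0.74, against a median of 0.12 over all genes. The signs for Wdfy1 and Gpr137b-ps changed when single arrays were left out. Wdfy1 stood at 0.01 without WT 2, 0.06 without KO 3, -0.07 without WT 1 and -1.02 without WT 3, and Gpr137b-ps at -0.29 without WT 2, -0.06 without KO 1 and -0.0009 without KO 2, and otherwise between 0.32 and 0.55. AI506816 stood at 2.31 without KO 3, 2.14 without WT 2, 0.49 without KO 1, 0.43 without KO 2 and 0.03 without WT 3, and Myo7a at -1.14 without KO 2, -1.09 without WT 3, -0.41 without KO 3, -0.40 without WT 2, -0.33 without WT 1 and -0.27 without KO 1. Over all genes, limma called 0 of 19938 (0%) at an adjusted p of 0.05, and 339 (1.70%) had an unadjusted p under 0.05.

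Gaps of this size were rare among all genes. A largest gap of at least 1 log2 unit was found for 11 genes (0.0552%), and one of at least 0.5 for 128 (0.642%), while the median gap over all genes was 0.13 and the 99th percentile 0.45. Of the 11, 3 were AI506816, Myo7a and Wdfy1, and 4 were the sex-linked genes Xist (6.16), Eif2s3y (3.81), Uty (3.55) and Kdm5d (2.47). Since the genes were chosen for their steps, their place among the 11 is no result. The other 4, apart from Hoxb13 named after their values were seen, each set 1 array apart. Hoxb13, a Hox gene of the tail end of the body axis, read 6.22 in WT 1 and 8.42 to 9.38 elsewhere (gap 2.20), and the matrix protein gene Postn was high in WT 1 (1.32). The small nucleolar RNA genes Snora73a (1.20) and Snora73b (1.19) were low in KO 2. Gpr137b-ps came next at 0.93, ahead of Adam34l at 0.91, which was high in WT 3 alone. By gap, AI506816, Myo7a, Wdfy1 and Gpr137b-ps held places 6, 7, 9 and 12, and the place of AI506816 rests on a value under the background guide.

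**Figure D3:**
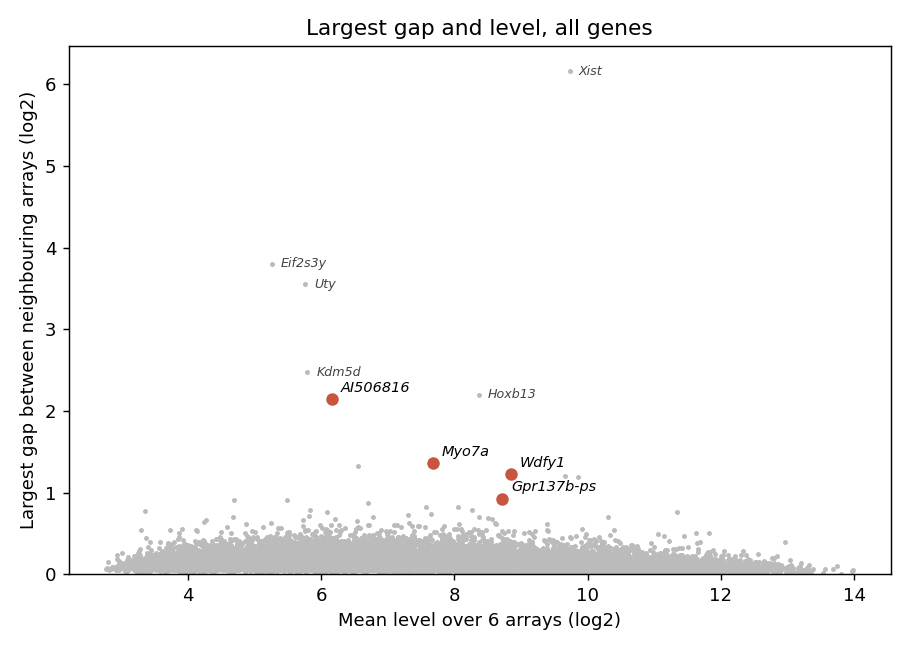
Largest gap between neighbouring arrays (log2 units, vertical axis) against the mean level over the 6 arrays (log2, horizontal axis) for all 19938 genes, 1 point each. The 4 genes, in red, lie from 0.93 to 2.14, against a 99th percentile of 0.45 over all genes, at mean levels from 6.16 to 8.85. The gap of AI506816 has its lower side under the background guide.

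The neighbours of Wdfy1, Myo7a and Gpr137b-ps on their chromosomes had smaller steps than these genes. Since the genes were chosen for a wide spread, that difference in size is no result. Among the 10 nearest measured genes, 5 on each side, the largest gap was 0.18 around Wdfy1 on chromosome 1 (the potassium channel subunit gene Kcne4), 0.31 around Myo7a on chromosome 7 (the ceramidase gene Acer3) and 0.43 around Gpr137b-ps on chromosome 13 (Lyst, a regulator of lysosome size). Ap1s3 and Mrpl44, which flank Wdfy1, had ranges of 0.53 and 0.47, against 2.06 for Wdfy1. Ap1s3 was lowest in WT 3 (6.66) and KO 3 (6.82), the low arrays of Wdfy1, but its largest gap lay above WT 2 (6.90). Mrpl44 was lowest in WT 1 (7.31). Gdpd4 and Capn5, on the 2 sides of Myo7a, had ranges of 0.38 and 0.07, against 1.83 for Myo7a. Ero1b and Prl2c5, on the 2 sides of Gpr137b-ps, had ranges of 0.17 and 0.52, against 1.51. None of the 20 nearest measured genes of Wdfy1, of Myo7a or of Gpr137b-ps parted the arrays as that gene did. Of all other genes, 6.88%, 0.80% and 1.01% held these divisions. At these shares few or none are to be found among 20 genes, so their absence says little.

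Near AI506816 on chromosome 5, 2 genes divided the arrays as it did, by smaller steps. Rint1, a gene of vesicle tethering and cell cycle control that lies 2 measured genes away, read 8.53 in WT 2, 8.69 in KO 1 and 8.41 in KO 2, against 8.17 in WT 1, 8.06 in WT 3 and 8.13 in KO 3. Nupl2, a nuclear pore gene 6 measured genes away, read 8.26, 8.28 and 8.23 in WT 2, KO 1 and KO 2, against 7.85, 7.92 and 7.73 in WT 1, WT 3 and KO 3. Both were high in the arrays in which AI506816 was high, by gaps of 0.24 and 0.31 log2 units. Among the 20 nearest measured genes these were 2 of 20 with that division of the arrays, against 172 of the other 19937 genes, or 0.863%. With a gap of at least 0.2, a limit set after the values were seen, the division was found for 17 other genes in all, and for 2 of the 1138 others on chromosome 5, which were Rint1 and Nupl2. The other 18 of the 20 did not share it, and of the 10 nearest genes Rint1 alone did. The largest gap among those 10 was that of Orc5, a subunit of the origin recognition complex, at 0.39 with WT 1 apart and a range of 0.82, larger than the steps of Rint1 and Nupl2. Pus7, next to AI506816, was lowest in WT 3 (7.38) and KO 3 (7.65). Srpk2, on the other side, had a range of 0.24 and was lowest in WT 3 (10.50) and KO 3 (10.58). WT 3 and KO 3 were also the lowest arrays of AI506816. WT 1, low for AI506816, was among the higher arrays of Pus7 (7.98) and Srpk2 (10.75).

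**Figure D4:**
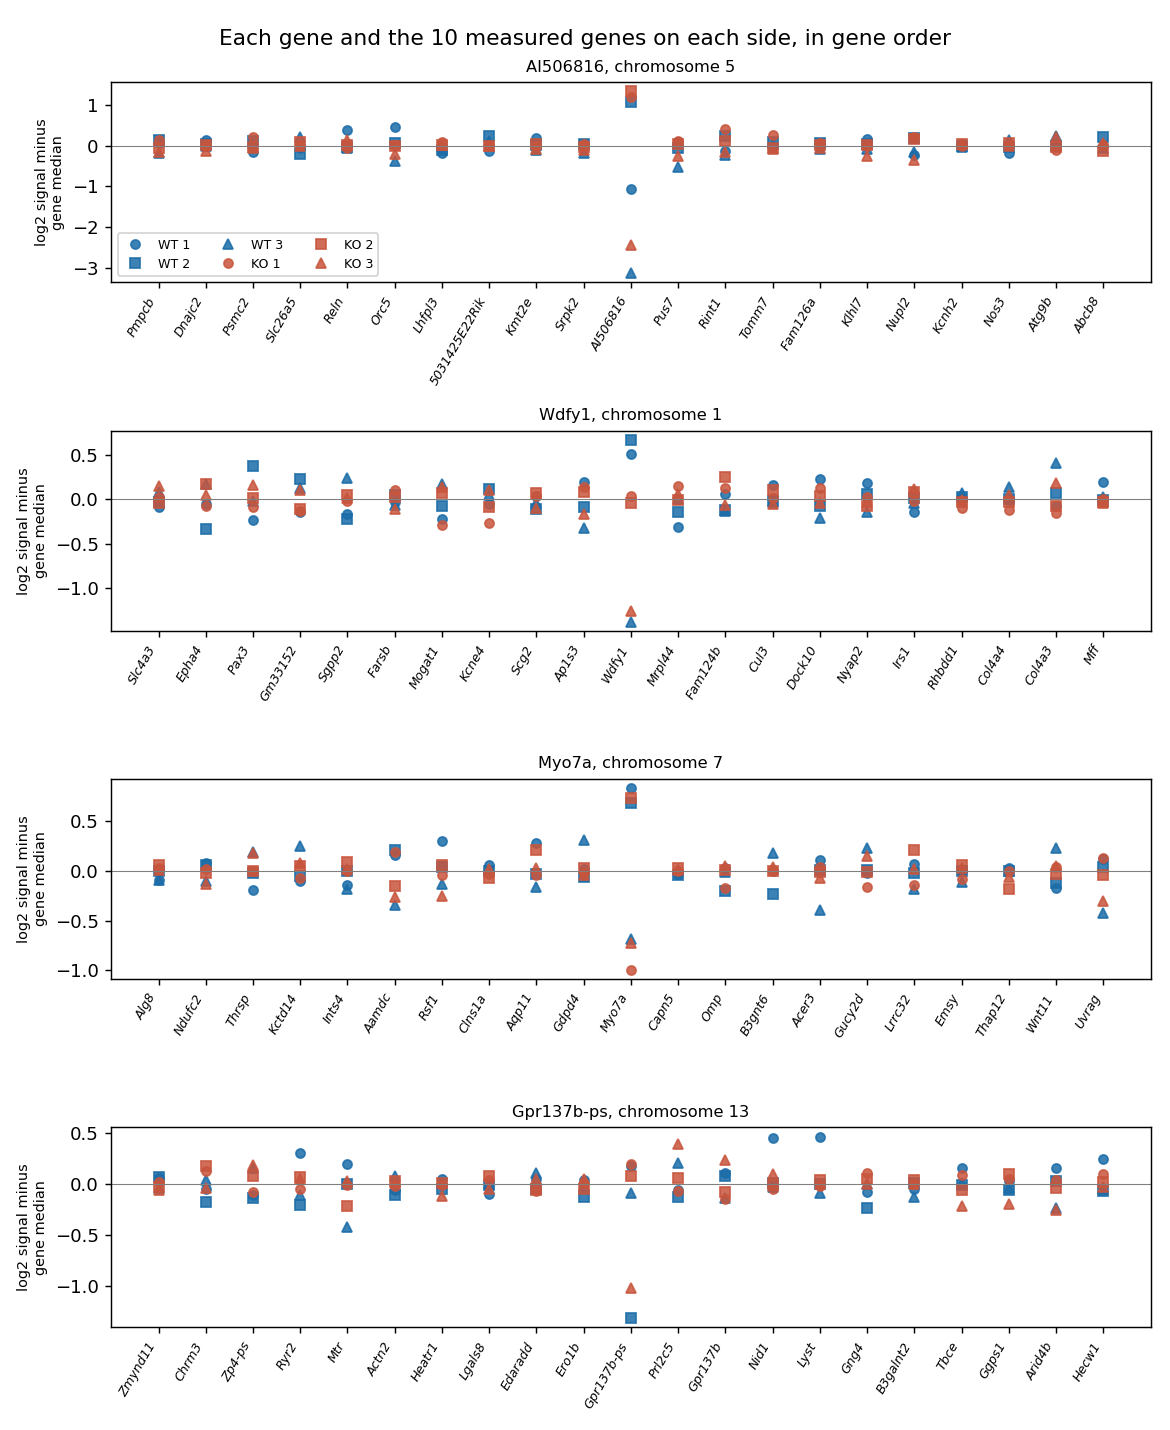
Log2 signal minus the median of the gene over the 6 arrays (vertical axis) for each of the 4 genes and the 10 measured genes on each side, in gene order along the chromosome (horizontal axis), with wild-type arrays in blue and knockout arrays in red and a marker shape for each replicate number. The central gene, chosen for a wide spread on these arrays, has a range of 4.47, 2.06, 1.83 and 1.51 in the 4 panels. The same arrays are up for Rint1 and Nupl2 as for AI506816.

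The place of the AI506816 row itself was not certain. The RefSeq table puts the gene on chromosome 5, but of the 20 named rows with the nearest row numbers in the array's table, 19 belong to genes of chromosome 1. For Wdfy1, Myo7a and Gpr137b-ps the corresponding rows agree in chromosome with the gene for 17, 19 and 17 of 20. Of those 20 genes near the AI506816 row by number, 0 parted the arrays as it did, and their largest gap was 0.39. Probe positions were not used here, so which transcript the row measures was not tested.

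Other genes that part the arrays in the same way were counted as the measure of likeness, over the 6 arrays. With a gap of at least 0.5, the rule set for likeness, there was 1 such gene for AI506816 (Nxpe4, chromosome 9, gap 0.52), 1 for Wdfy1 (the zinc finger gene Zfp442, chromosome 2, 0.50), 1 for Myo7a (the chemokine gene Ccl28, chromosome 13, 0.53) and 0 for Gpr137b-ps. Nxpe4 read 7.28, 7.53 and 7.35 in WT 2, KO 1 and KO 2, against 6.56 to 6.75 elsewhere. Ccl28 read 7.31, 7.21 and 7.54 in WT 1, WT 2 and KO 2, against 6.52 to 6.68 elsewhere. All 3 lie on other chromosomes than the gene they resemble. These counts take 1 row a gene. Over all rows with 1 symbol there were 1, 6, 1 and 0 for AI506816, Wdfy1, Myo7a and Gpr137b-ps, with a largest gap of 0.60 for Wdfy1. Rows with several symbols added 2 for Wdfy1 (largest gap 0.53) and 1 for Myo7a (0.76).

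At a smaller gap of at least 0.3, Wdfy1 differed from the others in how common its division was. It was shared by 91 other genes, 40 of them in the same direction, among them the spliceosomal protein gene Snrpe (chromosome 1, gap 0.50). AI506816 had 3, Myo7a 2 and Gpr137b-ps 0. The 1436 genes with such a gap used 30 of the 31 possible divisions, and 711 of them set WT 3 apart and 326 WT 1. WT 3 with KO 3 against the rest, the division of Wdfy1, came next, and these are the 2 arrays with the highest values on the first component, at 0.705 and 0.293. The part of that component in the low Wdfy1 values of WT 3 and KO 3 was not tested. The gap of Wdfy1 was 1.22 also without WT 3 and 1.35 without KO 3, and it was 1.22 after renewed quantile normalization. Leaving out either low array keeps the other, and RMA had already equalised the arrays. These gaps therefore say nothing on the part of that component. The division of knockout from wild type itself was held by 1 gene at this gap, Fgfr1op2 (0.31), named after its value was seen.

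**Figure D5:**
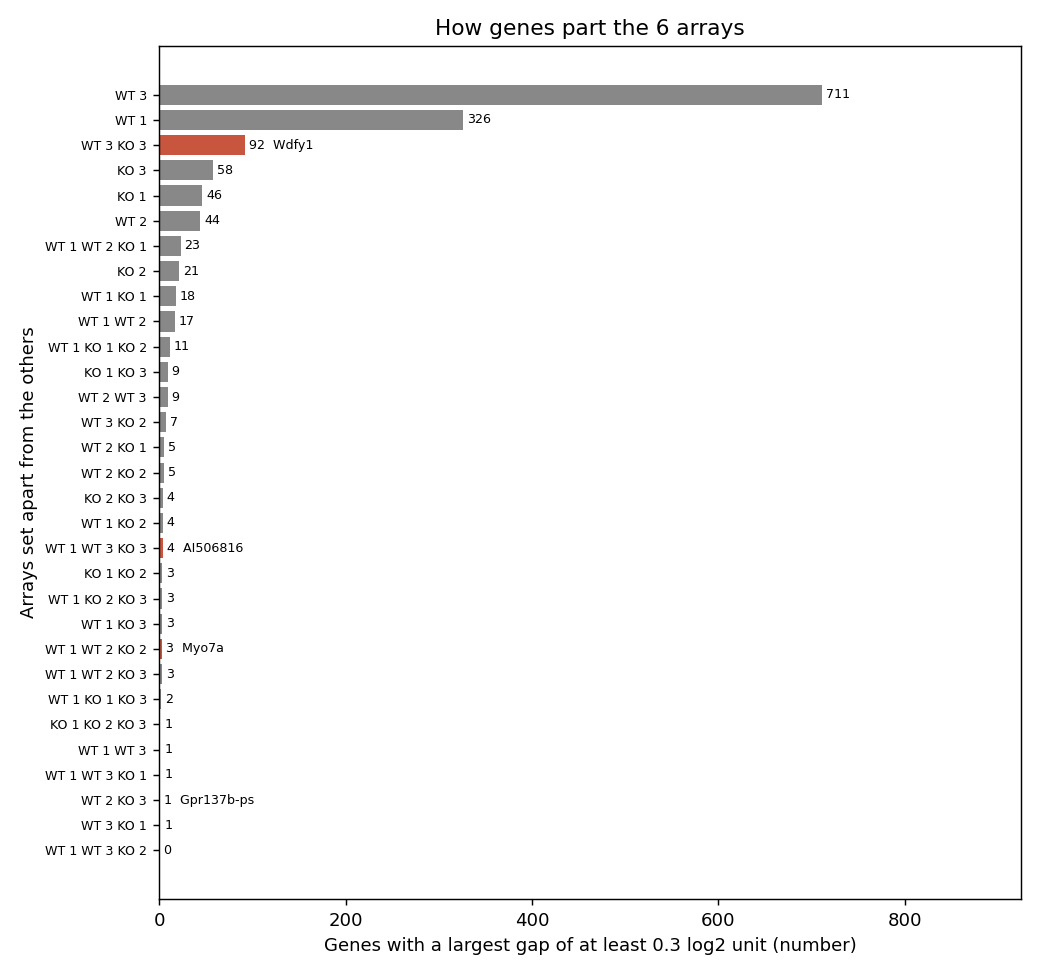
Number of genes (horizontal axis) with a largest gap of at least 0.3 log2 unit for each of the 31 ways to set some arrays apart from the others (vertical axis), with the divisions of the 4 genes in red. Setting WT 3 apart leads with 711 genes, the division of Wdfy1 has 92 with Wdfy1 itself, and those of AI506816, Myo7a and Gpr137b-ps have 4, 3 and 1.

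Steps of the same divisions were also found among the 12147 rows of the table with no gene symbol. With a gap of at least 0.5 there were 3 such rows for AI506816, 40 for Wdfy1, 15 for Myo7a and 18 for Gpr137b-ps, with largest gaps of 0.85, 1.19, 1.53 and 0.87. What these rows measure is not known here.

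The 9 relatives of the 4 genes had ranges of at most 0.55 log2 units. Gpr137b, on the same chromosome as its pseudogene, read 9.04 in WT 1, 9.01 in WT 2, 8.79 in WT 3, 8.78 in KO 1, 8.85 in KO 2 and 9.17 in KO 3, a range of 0.39. It was highest in KO 3, where Gpr137b-ps was low. Probe sequences were not used here, so how far the rows of this gene pair share signal was not tested. Gpr137 and Gpr137c had ranges of 0.20 and 0.08. The FYVE relatives Wdfy2, Wdfy3 and Wdfy4 had ranges of 0.31, 0.38 and 0.44, and the myosins Myo7b, Myo10 and Myo15 of 0.40, 0.34 and 0.55. Wdfy4 was higher in WT 3, KO 1 and KO 3, the arrays in which Myo7a was low, by a gap of 0.16. None of the other 8 relatives shared a division with any of the 4 genes. The divisions of AI506816, Wdfy1, Myo7a and Gpr137b-ps were held by 0.863%, 6.88%, 0.80% and 1.01% of all other genes.

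Lists of partners of these genes were set beside the genotypes. Of 7 measured Usher proteins, which work with myosin VIIa in hair cells, 6 were higher and 1 lower in knockout and 0 passed limma at an adjusted p of 0.05, with a median log2 difference of 0.04 against -0.01 over all genes. Pcdh15 and Ush1g differed by 0.08 each. Among 22 unconventional myosins the median was -0.03 (8 higher, 14 lower), and Myo9a and Myo9b differed by -0.18 and -0.09. Among 13 genes of Tlr3 and Tlr4 signalling it was 0.03 (9 higher, 4 lower), and Tlr4 and the kinase gene Ikbke differed by -0.18 and -0.13. Among 22 genes for FYVE domain proteins it was -0.04 (7 higher, 15 lower), and Zfyve26 and Fgd3 differed by -0.15 and -0.13. Among 19 genes of lysosomal mTORC1 control it was 0.02 (13 higher, 6 lower), and Sesn2 and Rragb differed by 0.18 and 0.20. In each of these 5 lists 0 genes passed the adjusted threshold, as for all 19938 genes, and 0 had an unadjusted p under 0.05, against 1.70% of all genes, a share at which few or none are to be found in lists of 7 to 22. The largest gap in them was 0.42, for the Tlr4 co-receptor gene Ly96, which was low in WT 3. Of these partners Fgd4 parted the arrays as Wdfy1 did and in the same direction, while Ush1g, Ifnb1, Zfyve28 and Tfeb had that division in the opposite direction. Wdfy4 had the division of Myo7a and Fyco1 that of Gpr137b-ps, both in the opposite direction. At any gap size and in either direction, the divisions of Wdfy1, Myo7a and Gpr137b-ps were held by 6.88%, 0.80% and 1.01% of all other genes.

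Genes known to carry structural or loss-of-function variants among inbred mouse strains were set beside the 4 genes. Of 12 measured, 0 had a gap of 0.5 or more and 0 parted the arrays as any of the 4 genes did. Of all genes, 0.642% had such a gap. The divisions of AI506816, Wdfy1, Myo7a and Gpr137b-ps were held by 0.863%, 6.88%, 0.80% and 1.01% of all other genes. At these shares few or none are to be found among 12 genes. The largest gaps among the 12 were those of Hdhd3 (0.44), Gabra2 (0.36) and Mx2 (0.33), and the smallest that of Casp4 (0.08). Of the 12, 4 had mean levels under the background guide, namely Casp4 (5.15), Mx1 (4.38), Mx2 (4.71) and Tyr (4.66). The gaps of these 4 dim genes are not well measured, so the absence of a step in them says little. Hdhd3 and the heme-synthesis gene Alad lie on chromosome 4, as does Tnc, and are known to share a duplication in some strains. Their largest gaps set WT 1 on the side of the knockout arrays. Every knockout array still lay above every wild-type array for both genes, and 5.82% of all genes had groups without overlap. Hdhd3 read 8.74 in WT 1, 8.30 and 8.05 in WT 2 and WT 3, and 8.99 to 9.14 in knockout, and Alad read 11.66, 11.33 and 11.39 in wild type and 11.81 to 11.89 in knockout. Their unadjusted limma p-values were 0.0022 and 0.0036, and 0 of the 12 passed after adjustment. Gabra2, a GABA receptor subunit gene, was lower in KO 1 (9.76) and KO 3 (9.54) than in the other 4 arrays (10.12 to 10.35). KO 1 and KO 3 were also the arrays in which the Y-linked genes were high. Glo1, Nnt, Ide, Fgfbp3, Disc1, Mx1 and Tyr had gaps from 0.09 to 0.21.

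Markers of cell types that express Myo7a elsewhere, or that could be carried along with the cord, were set beside the 4 genes. Hair cell markers (5 of 5 measured) lay at mean levels from 6.43 to 8.11 and had a largest gap of 0.39, that of Atoh1 (difference -0.27, with Gfi1 at -0.13). Of 6 melanocyte markers 3 were under the background guide, and the largest gap was 0.32, that of Dct (difference -0.26, with Mitf at 0.09). Summed on the linear scale and given as log2, the melanocyte markers lay between 8.59 and 8.89 in wild type and 8.65 and 8.81 in knockout, and the hair cell markers between 9.46 and 9.66 and between 9.49 and 9.56. Markers of dorsal root ganglion (3 measured, Prph 0.09 and Avil 0.07), endothelium (4, Cdh5 0.26 and Pecam1 0.20), erythroid cells (3, Hbb-bh1 -0.14 and Hbb-y -0.08), meninges (4, Lum -0.30 and Dcn 0.38), microglia (4, Aif1 -0.19 and Csf1r 0.12) and skeletal muscle (5, Acta1 0.15 and Myod1 -0.14) had largest gaps from 0.15 to 0.46, with log2 differences between genotypes in parentheses. Among cord markers the largest gap was 0.37, that of Pax6, and Olig2 and Sox2 differed by 0.24 and 0.12. None of these marker genes had the division of AI506816, Myo7a or Gpr137b-ps, which 0.863%, 0.80% and 1.01% of all other genes held. Otof had that of Wdfy1 in the same direction and Mlana, Ckm and Myog had it in the opposite direction. An unadjusted limma p under 0.05 was found for Cdh5 and Pecam1 of 4 endothelial markers (all 4 higher in knockout), Lum of 4 meningeal, Aif1 of 4 microglial and Olig2 of 8 cord markers. It was found for 0 markers of hair cells, melanocytes, dorsal root ganglion, erythroid cells and skeletal muscle. Of all genes 1.70% had such a p, and 0 of the markers passed after adjustment. Lum and Aif1 lay at mean levels of 4.22 and 5.75, under the background guide of 6.14. Hbb-bh1 (4.99), Avil (6.11) and Dct (5.46) were under it too. The differences of these genes are therefore not well measured. The part of the markers in the levels of the 4 genes was not tested. In bulk tissue fewer cells of a type and less RNA per cell cannot be told apart.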

How the data were processed

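RNA of 6 lumbar cords was measured on 1-colour arrays. The deposited values are log2 signals made by the authors with RMA (no version), which the submitters' processing notes name. RMA equalises the arrays and compresses small differences. The table holds 35557 rows, of which 21789 carry 1 symbol in the platform annotation, 1621 several and 12147 none. Entrez identifiers linked the symbols to a RefSeq table of GRCm38.p6 (19856 of 19938 genes matched), which also gave chromosomes and gene order. Coordinates are left out because the values name no genome build. For the 999 genes with several rows, the row of highest mean was used.

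Knockout and wild type were compared with limma 3.58.1 in R 4.3.3 (lmFit, eBayes, group as the only term), two-sided, with Benjamini-Hochberg adjustment over all genes. Standard errors and intervals come from that fit. Largest gaps and divisions of the arrays were computed from the sorted values. Both steps were tested on simulated data. No filter on dim genes was used.

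The 4 genes, the lists and the tests were chosen with earlier results of these data known. Other genes named are relatives, the 5 nearest measured genes on each side (in part), up to 5 genes of the same division, genes with a gap of at least 2, strain variant genes, sex-linked genes and the 2 of smallest p in each list. Genes outside this rule are said to be so, or lie within 10 genes of a member, or have the largest gap of their list. No scan date, batch or litter was at hand. Same-numbered arrays were checked for pairing. The correlations of their deviations from the group means over genes were 0.35, -0.07 and 0.45 for numbers 1, 2 and 3. These values do not settle whether the numbers mark pairs. The labels do not say that they do, so the main fit used no pairs, and a fit with a replicate block is given below. Figures were drawn with matplotlib 3.10.9.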

Additional observations from a re-analysis of the deposited data

How the results depend on the processing

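Alternatives were leaving out each array, a replicate block, filters on dim genes, median centring, a second quantile normalization, 2 other ways to combine rows of a gene, an intensity trend, array weights and the linear scale. In each of them that gives gaps, the 4 genes kept the same arrays on the high side. Most of these settings could not change that. The filters, replicate block, intensity trend and array weights leave the values of these genes as they are. Each gene has 1 row, so other ways to combine rows cannot change them either. The outcome could differ only with arrays left out or values changed, as by median centring or quantile normalization. With single arrays left out the largest gap ran from 2.14 to 3.51 for AI506816 (3.51 without WT 1), from 1.22 to 1.35 for Wdfy1, from 1.36 to 1.41 for Myo7a and from 0.93 to 1.23 for Gpr137b-ps. Knockout minus wild type then ran from 0.03 to 2.31, from -1.02 to 0.064, from -1.14 to -0.27 and from -0.29 to 0.55, with changed signs for Wdfy1 (0.0147 without WT 2, 0.064 without KO 3) and Gpr137b-ps (-0.29 without WT 2, -0.0582 without KO 1, -0.0009 without KO 2). With array weights, a fit that stopped before convergence and gave WT 2 a weight of 6.39, AI506816 turned to -0.25, Gpr137b-ps moved to 1.06 and Wdfy1 to -0.86, Myo7a stood at -0.60, and 4181 genes had an unadjusted p under 0.05. The replicate block cannot change the 4 differences (1.08, -0.36, -0.61 and 0.16), as each number holds 1 array of each genotype. The block gave 636 such genes. Without genes under the median level, which drops AI506816 and Myo7a, 208 genes had an unadjusted p under 0.05, 646 did not overlap and 5 had a gap of at least 1. With single arrays left out these counts ran from 220 to 1377 (663 without WT 1, 1377 without WT 3 and 220 without KO 2), from 2192 to 4684 and from 9 to 12, and genes past the adjusted threshold from 0 to 4, the 4 arising without KO 2. Smaller groups overlap less often by construction. Genes divided like AI506816 numbered 17, 3 and 0 at gaps of 0.2, 0.3 and 1, those like Wdfy1 428, 91 and 0, those like Myo7a 12, 2 and 0, and those like Gpr137b-ps 20 at 0.2 and 0 at both others. Array number, and signal under the background guide on 3 arrays for AI506816, limit these values, and the cause of other shifts was not tested.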
